A study of Mus musculus with 4 samples.

Results

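The 10 genes described here carry the unfolded protein response and the integrated stress response of the cell: the sensors Ern1 and Eif2ak3, the transcription factors Atf4, Xbp1 and Ddit3, and the target genes Trib3, Chac1, Asns, Herpud1 and Hspa5. They were taken by name from a deposited table of 44509 gene symbols, and all 10 were found in it. The samples were mouse testes, with 2 from a busulfan model of oligozoospermia (the busulfan group) and 2 from such mice that were then treated with Cus-1, a resin glycoside from a cuscutae extract (the Cus-1 group). Busulfan, an alkylating agent toxic to germ cells, had been given to both groups, so no untreated testis is part of the comparison. The sources used here give no strain, age, dose or time, and leave out whether each sample came from its own animal. If 2 samples share an animal, the p-values measure a spread that is technical only. The sample titles begin with BPA in the busulfan group and with CUS2 in the Cus-1 group, and neither matches the source label, which alone gives the groups.

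The endoplasmic reticulum (ER) folds secreted and membrane proteins. When unfolded proteins pile up there, the membrane sensors IRE1 (encoded by Ern1), PERK (Eif2ak3) and ATF6 are released from the chaperone BiP (Hspa5). IRE1 cuts a short intron out of the Xbp1 mRNA, so that an active XBP1 factor is made, and this factor and ATF6 raise chaperone and degradation genes. PERK and its sister kinases phosphorylate the initiation factor eIF2, which lowers translation in general but lets ATF4 be made. ATF4 in turn raises genes of amino acid supply and, under lasting stress, the death-linked factor CHOP (Ddit3). In the testis, developing spermatids make large amounts of acrosomal and membrane protein through the ER, with chaperones of their own beside the general ones.

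The sequences below show the elements through which these factors are known to act. IRE1 cuts the Xbp1 mRNA at a pair of sites with the letters CNGCAGC. In the GENCODE M21 transcripts of Xbp1, a search found 1 such pair that lies 26 bases apart, on chr11:5524279-5524304 of GRCm38 (mm10), plus strand, inside an exon. The window is shown with 20 bases on each side and the excised 26 bases in capitals.

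Xbp1: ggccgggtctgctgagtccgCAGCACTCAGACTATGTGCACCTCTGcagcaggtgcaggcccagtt

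The deposited table has a single row for Xbp1, so its value counts spliced and unspliced mRNA together and holds no measure of IRE1 activity. Likewise, it holds no measure of eIF2 phosphorylation or of ATF4 protein.

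The promoters of 4 target genes follow, because they hold the known elements of the response. Each runs from 250 bases before to 50 after the RefSeq start site in GRCm38.p6, and motif matches on either strand are in capitals.

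Hspa5: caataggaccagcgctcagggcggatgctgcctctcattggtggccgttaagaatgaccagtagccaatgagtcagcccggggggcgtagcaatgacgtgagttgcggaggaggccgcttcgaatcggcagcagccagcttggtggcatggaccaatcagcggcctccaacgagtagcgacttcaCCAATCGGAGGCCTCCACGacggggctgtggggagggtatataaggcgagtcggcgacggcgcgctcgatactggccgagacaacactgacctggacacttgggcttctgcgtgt
Herpud1: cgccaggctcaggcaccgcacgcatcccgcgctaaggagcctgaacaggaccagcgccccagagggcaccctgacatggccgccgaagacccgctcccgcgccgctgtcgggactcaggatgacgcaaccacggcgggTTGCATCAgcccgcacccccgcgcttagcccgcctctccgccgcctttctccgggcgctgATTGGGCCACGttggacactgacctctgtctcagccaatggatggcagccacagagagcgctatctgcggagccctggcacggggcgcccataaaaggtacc
Asns: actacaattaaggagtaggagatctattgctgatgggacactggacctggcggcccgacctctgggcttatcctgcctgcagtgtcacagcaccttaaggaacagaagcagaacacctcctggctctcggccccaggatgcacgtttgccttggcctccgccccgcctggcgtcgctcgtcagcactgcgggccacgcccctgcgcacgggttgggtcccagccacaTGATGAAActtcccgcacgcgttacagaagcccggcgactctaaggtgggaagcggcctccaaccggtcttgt
Chac1: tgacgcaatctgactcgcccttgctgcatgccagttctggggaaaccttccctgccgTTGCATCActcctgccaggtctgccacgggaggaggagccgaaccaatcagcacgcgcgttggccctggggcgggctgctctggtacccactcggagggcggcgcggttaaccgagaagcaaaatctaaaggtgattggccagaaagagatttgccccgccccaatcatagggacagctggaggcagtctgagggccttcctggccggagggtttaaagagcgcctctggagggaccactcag

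These windows are chr2:34771840-34772139 for Hspa5, chr8:94386179-94386478 for Herpud1, chr6:7693160-7693459 for Asns and chr2:119350992-119351291 for Chac1, with Asns on the minus strand and the others on the plus strand. The capitals in Hspa5 are an ER stress response element (ERSE, searched as CCAAT, any 9 bases, then CCACG), which is bound by ATF6 and XBP1. An exact match to it stood in the promoter of 1 of the 10 genes, and in 0.119% of the 32851 promoters of this length. The longer run of capitals in Herpud1 is the related ERSE-II (ATTGG, any 1 base, then CCACG), found in 1 of the 10 genes and in 0.0365% of promoters. Both of these include the letters of a CCAAT box, which occurred in 37.4% of promoters and is not marked where it stands alone. The other capitals are amino acid response elements (TGATGNAA), the site of ATF4. They were found in 4 of the 10 genes, Trib3, Chac1, Asns and Herpud1, and in 3.97% of promoters. The UPRE (TGACGTGG) and the CRE (TGACGTCA) had no match in the 10 windows and were found in 0.676% and 1.79% of promoters. All 4 genes with an amino acid response element in these windows are targets, and in Trib3 it lies 14 to 21 bases after the start site. The search took exact letters within the windows only. An element further from the start site, or with a changed letter, would be missed, so no match does not mean no element.

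Values are FPKM (fragments scaled to gene length and to the mapped fragments of the library), so levels can be compared between genes. Fold changes are Cus-1 minus busulfan on log2(FPKM + 1), a scale that understates the change of low genes. The test took genes that reached 1 FPKM in 2 or more of the 4 libraries, which were 19837 genes and 8 of the 10 members. From the smallest steps between low values, depth was estimated as 12.1 to 13.8 M fragments per library. No gene passed a limma adjusted p of 0.05 (0% of 19837), and hence no member did. An unadjusted limma p under 0.05 was found for 3576 higher genes (18.0%) and 1975 lower ones (9.96%), together 28.0%. These numbers were 2841 and 2690 after quantile normalization, 9403 and 59 with libraries centred on Sertoli markers, and 43 and 7294 with spermatocyte markers as the centre. The adjusted threshold was passed by 2289 genes when Cus-1 2 was left out and by 45 when Cus-1 1 was. Groups of 2 libraries did not overlap for 68.4% of tested genes, 36.6% being higher and 31.7% lower in each Cus-1 library, so separation alone was common. With 2 against 2 libraries, 0.333 is the lowest p that an exact two-sided permutation test can give.

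The tissue carried the markers of a testis, and these differed between the groups. All 12 spermatocyte and all 12 round spermatid markers were higher in each Cus-1 library (median log2 fold change 0.90 and 1.16), and all 18 Sertoli cell markers were lower in both (median -0.72). Of 11 Leydig cell markers 8 were lower in both (median -0.50), of 10 peritubular and stromal markers 5 (-0.46), of 9 endothelial markers 8 (-0.48) and of 12 macrophage markers 8, with 2 higher (-0.63). Single libraries moved these medians: for spermatocytes to 0.44 without busulfan 1 and 1.40 without busulfan 2, and for round spermatids to 0.75 without Cus-1 1. Without busulfan 1 the peritubular median was -0.24 and the macrophage median -0.38. Without Cus-1 1 they were -0.27 and -0.39 and the Leydig median was -0.28, while the Sertoli median ran from -0.86 to -0.54. The summed level of the Sertoli markers was 9580 and 7377 FPKM under busulfan alone and 4659 and 5801 after Cus-1, and that of the spermatocyte markers 1502 and 2301 against 3609 and 3270. Elongating spermatid markers set Cus-1 1 apart, at 13550 FPKM against 5176 in Cus-1 2 and 3682 and 3947 with busulfan. Spermatogonial markers went both ways, with 4 higher and 3 lower of 9 tested (median 0.06). Mitochondrially encoded genes made up 8.57% and 8.64% of the FPKM under busulfan alone and 5.89% and 7.56% after Cus-1. None of these lists had a marker at 0 in all libraries. In bulk tissue, fewer cells of a type, less RNA per cell and a larger share of RNA from other cells cannot be told apart.

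With Cus-1 the sensors and Xbp1 were lower, while Ddit3 and the measured targets lay near the median of all genes. Ern1 and Eif2ak3 were at 0.58 and 0.57 of their busulfan level and Xbp1 at 0.64, Atf4 at 0.86, and Ddit3, Asns, Herpud1 and Hspa5 between 0.99 and 1.16. The median log2 fold change was -0.73 for the 2 sensors, -0.21 for the 3 transcription factors and 0.11 for the 3 tested targets, against 0.04 for all tested genes. Of the 8 tested members, 0 passed the adjusted threshold, and the unadjusted limma p fell under 0.05 for 3 on the lower side and 0 on the higher, beside 9.96% and 18.0% of all genes. Leaving out busulfan 1, busulfan 2, Cus-1 1 or Cus-1 2 in turn made that count of 3 into 0, 1, 0 and 3.

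**Figure D1:**
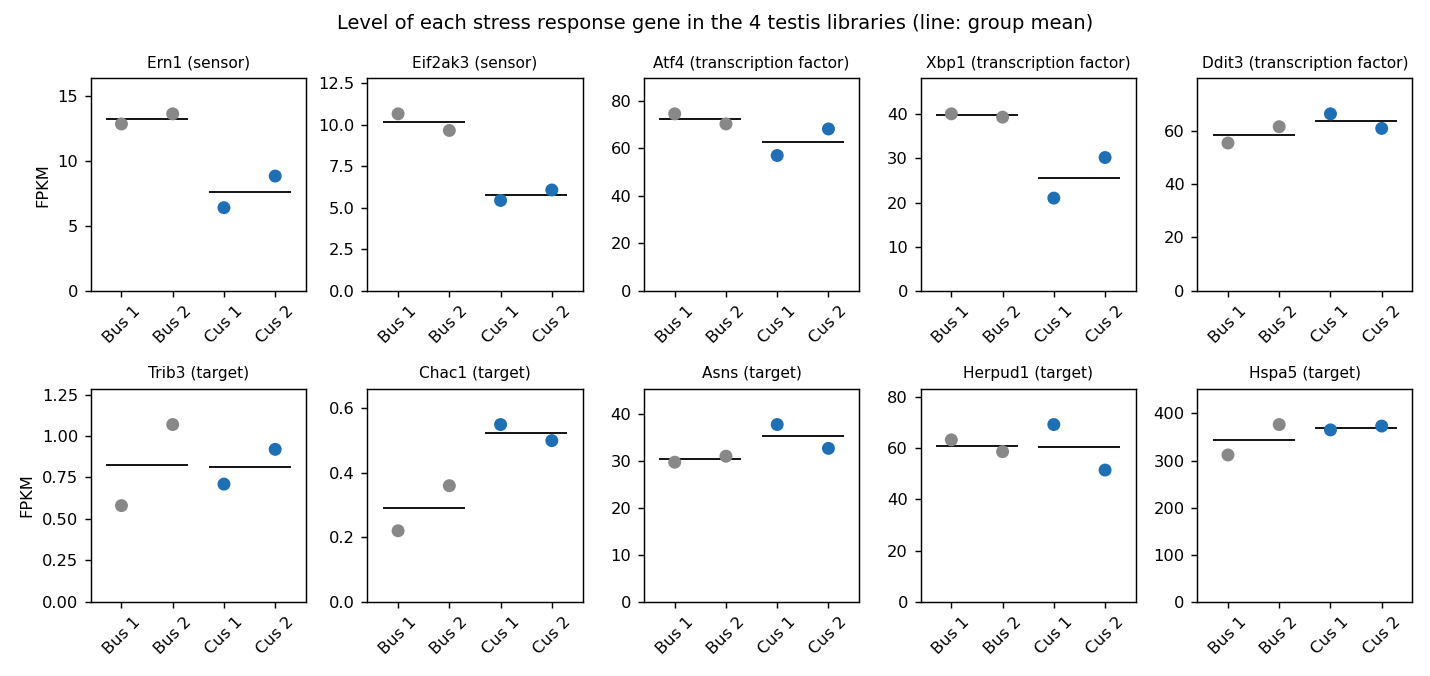
FPKM of the 10 genes (vertical axes, each from 0) in the busulfan (Bus, grey) and Cus-1 (Cus, blue) libraries, with a line at each group mean. Ern1, Eif2ak3, Xbp1 and Atf4 are lower in each Cus-1 library, Asns and Chac1 higher in both, and the other 4 genes overlap.

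Ern1 encodes IRE1 alpha, the kinase and RNase of the ER membrane. The gene lies on chromosome 11 (106394650 to 106487852, minus strand, GENCODE M21 on GRCm38, as are all gene positions here). The busulfan libraries held 12.9 and 13.7 FPKM of it and the Cus-1 libraries 6.42 and 8.86. Both Cus-1 libraries were below both busulfan libraries, by more than the spread within either group. This made a log2 fold change of -0.74 (SE 0.22, 95% interval -1.30 to -0.18, limma adjusted p = 0.152). It was -0.53 when Cus-1 1 was left out and -0.94 when Cus-1 2 was. Ern2, the IRE1 form of mucous epithelia, was not tested, with 0.07 and 0.06 FPKM under busulfan alone and 0.10 and 0.16 after Cus-1.

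Eif2ak3 encodes PERK, the eIF2 kinase of the ER membrane, and lies on chromosome 6 (70844515 to 70905245, plus strand). Its level was 10.7 and 9.65 FPKM under busulfan alone and 5.44 and 6.07 after Cus-1. The groups were apart, and the libraries within each were close to each other. Its log2 fold change was -0.72 (SE 0.19, 95% interval -1.22 to -0.23, limma adjusted p = 0.152), and between -0.79 and -0.66 when any single library was left out.

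The other sensors and eIF2 kinases also had negative values, by less. All 7 tested genes of this list were below 0 (median -0.27, but 0.45 with each library centred on its Sertoli markers), 6 were lower in each Cus-1 library (31.7% of all genes were), and 1 had an unadjusted limma p under 0.05 (9.96% of all genes). With busulfan 1, busulfan 2, Cus-1 1 or Cus-1 2 left out, the order used for all such values here, the median was -0.17, -0.46, -0.23 and -0.47. ATF6 is the sensor that moves to the Golgi to be cut, and Atf6 stood at 12.2 and 11.5 FPKM under busulfan alone and 7.09 and 9.20 after Cus-1 (-0.50, SE 0.21). Its relative Atf6b stood at 26.1 and 22.9 against 19.3 and 21.4 (-0.26, SE 0.16). Mbtps1 encodes the Golgi protease that makes the first cut in ATF6, and it was the gene under 0.05, with 50.5 and 38.3 against 27.8 and 31.8 FPKM (-0.55, SE 0.20, limma adjusted p = 0.167). With busulfan 1 or Cus-1 1 left out that count of 1 became 0, and Mbtps1 was at -0.35 and -0.45. The other eIF2 kinase genes, named after their values were seen, are Eif2ak1 (HRI), Eif2ak2 (PKR) and Eif2ak4 (GCN2). Their log2 fold changes were -0.07, -0.27 and -0.46 (SE 0.15, 0.21 and 0.20), each closer to 0 than that of Eif2ak3. The ratio of Eif2ak3 to Eif2ak4 within a library was 1.41 and 1.33 under busulfan alone and 1.14 and 1.10 after Cus-1, and whether their changes differ was not tested.

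The lower sensor levels went together with the Sertoli markers (median -0.72). Macrophage (-0.63), plasma and B cell (-0.62), Leydig (-0.50), endothelial (-0.48) and peritubular and stromal markers (-0.46) were lower too. The plasma and B cell median rests on only 3 tested genes, from -1.69 to -0.22, and was -0.22 over 9 genes with no filter. From busulfan 1 to busulfan 2 the summed Sertoli markers fell from 9580 to 7377 FPKM. Between the same libraries Ern1 went from 12.9 to 13.7 and Eif2ak3 from 10.7 to 9.65. From Cus-1 1 to Cus-1 2 the summed Sertoli markers rose from 4659 to 5801 FPKM, Ern1 from 6.42 to 8.86 and Eif2ak3 from 5.44 to 6.07. With each library centred on the mean of its Sertoli markers, Ern1 was at -0.02 and Eif2ak3 at -0.00085, and with spermatocyte markers as the centre they were at -1.67 and -1.65. These scalings moved the median of all tested genes from 0.04 to 0.76 and to -0.88. Relative to that median, Ern1 was at -0.78 and Eif2ak3 at -0.77, which a centring by construction cannot move, and each was at -0.73 after quantile normalization. What part the differences in Sertoli and other markers have in the sensors' values was not tested.

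Xbp1 encodes the factor whose mRNA IRE1 splices, and lies on chromosome 11 (5520659 to 5525893, plus strand). The busulfan libraries held 40.1 and 39.3 FPKM and the Cus-1 libraries 21.01 and 30.2. The busulfan libraries lay close together, and both Cus-1 libraries were below them, Cus-1 1 the lower. The log2 difference came to -0.64 (SE 0.21, 95% interval -1.18 to -0.09, limma adjusted p = 0.1605). Leaving out Cus-1 1 gave -0.38, and leaving out Cus-1 2 gave -0.89 with a limma adjusted p = 0.0493, in the fit where 2289 genes passed. Centring on Sertoli markers turned the value to 0.09. Plasma cells hold much Xbp1, and of 10 plasma and B cell markers listed, 9 were in the table and 3 passed the filter, all lower in each Cus-1 library. The summed level of all 9 was 28.4 and 27.6 FPKM under busulfan alone and 15.7 and 13.99 after Cus-1. Only 2 of the 9 passed a 5 FPKM filter, so the sum is not a level shared by all of them. The joining chain gene Jchain was at 0.81 FPKM at most, and Mzb1 at 0.54 at most and at 0 in busulfan 1 and Cus-1 2. The part of such cells in the Xbp1 value was not tested.

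Atf4 encodes the central factor of the integrated stress response, which is controlled mostly at translation, and lies on chromosome 15 (80255184 to 80257541, plus strand). Atf4 stood at 74.5 and 70.2 FPKM under busulfan alone and at 56.9 and 68.1 after Cus-1. Both Cus-1 libraries were lower, Cus-1 2 by a small margin. The log2 fold change of -0.21 had an interval that includes 0 (SE 0.16, 95% interval -0.62 to 0.20, limma adjusted p = 0.383). It was -0.09 with Cus-1 1 left out, -0.34 with Cus-1 2 left out, and 0.51 with Sertoli centring.

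Ddit3 encodes CHOP, which favours cell death under lasting ER stress. The annotation has 2 overlapping genes of this symbol on the plus strand of chromosome 10 (127290774 to 127296288 and 127290829 to 127293753), and the table has 2 rows, 1 of them listed at 0 in all libraries. The higher row was used, and its value is uncertain as far as fragments were divided between the 2 genes. The busulfan libraries held 55.4 and 61.5 FPKM and the Cus-1 libraries 66.3 and 60.9. The groups overlapped, and no difference was detectable (log2 fold change 0.12, SE 0.15, 95% interval -0.26 to 0.50, limma adjusted p = 0.586). The direction flipped after quantile normalization (-0.0011) and with spermatocyte centring (-0.81).

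Within a library, Ddit3 stood at 0.74 and 0.88 of the Atf4 level under busulfan alone and at 1.17 and 0.89 after Cus-1. Atf4 was therefore the higher of the pair in 3 libraries and Ddit3 in Cus-1 1, an order as uncertain as the Ddit3 value itself.

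**Figure D2:**
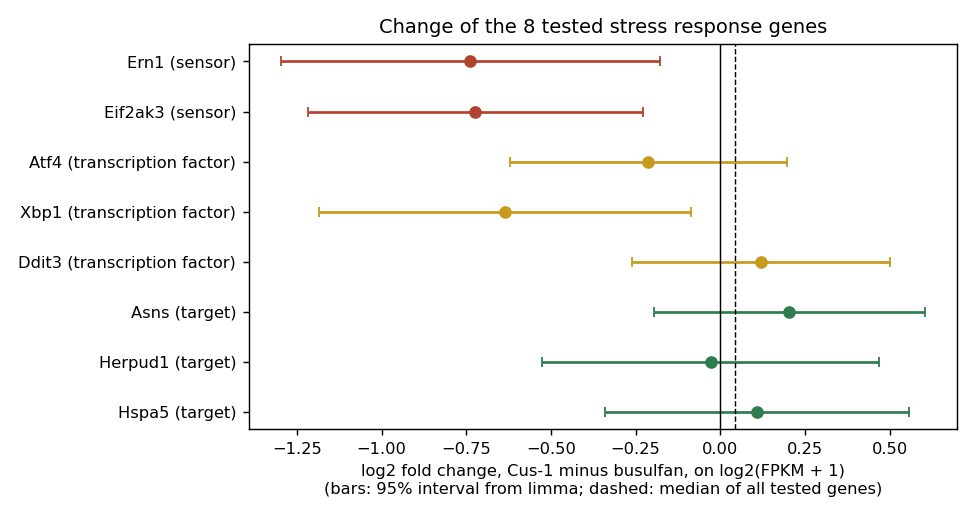
Log2 fold change (horizontal axis, Cus-1 minus busulfan on log2(FPKM + 1)) of the 8 tested genes, with 95% intervals from limma, a solid line at 0 and a dashed line at the median of all tested genes (0.04). The intervals of Ern1, Eif2ak3 and Xbp1 lie below 0 and the other 5 include 0; centring on Sertoli markers turns Xbp1, Atf4 and Herpud1 positive, and centring on spermatocyte markers turns Ddit3, Asns and Hspa5 negative.

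The other stress transcription factors went both ways. Of 11 tested genes 2 were higher and 4 lower in each Cus-1 library (36.6% and 31.7% of all genes). The same numbers had an unadjusted limma p under 0.05 (18.0% and 9.96% of all genes). The median was -0.45 (0.27 with Sertoli centring). Leaving out each library moved the median to -0.28, -0.58, -0.22 and -0.69. Creb3l1, an ER-bound factor of secretory and matrix-making cells, stood at 26.9 and 30.8 FPKM under busulfan alone and 15.7 and 19.7 after Cus-1 (-0.68, SE 0.19). Nfe2l1, which raises proteasome genes, stood at 90.7 and 92.5 against 59.6 and 73.6 (-0.46, SE 0.16). Creb3 overlapped, with 105 and 74.9 against 54.9 and 76.1 (-0.45, SE 0.25). Cebpg, a dimer partner of ATF4, was on the other side, with 19.8 and 23.3 against 38.1 and 31.3 FPKM (0.66, SE 0.18, limma adjusted p = 0.152, and -0.27 with spermatocyte centring). With busulfan 1, busulfan 2, Cus-1 1 or Cus-1 2 left out in turn, the 4 lower genes under 0.05 numbered 1, 1, 0 and 7, and the 2 higher ones 0, 2, 1 and 2.

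The 3 tested targets among the members had log2 fold changes from -0.03 to 0.20, and whether these differ from those of the sensors was not tested. Hspa5 encodes BiP, the main ER chaperone and the ERSE gene shown above, and lies on chromosome 2 (34771970 to 34777547, plus strand). Under busulfan alone it reached 312 and 376 FPKM, and after Cus-1 365 and 373. Busulfan 1 was the lowest library, and the other 3 lay close together. The log2 fold change of 0.11 was within its error (SE 0.17, 95% interval -0.34 to 0.56, limma adjusted p = 0.683). It was -0.03 without busulfan 1, 0.24 without busulfan 2, and -0.82 with spermatocyte centring.

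Herpud1, on chromosome 8 (94386438 to 94395377, plus strand), encodes a membrane protein that organises the degradation of misfolded ER proteins, and its promoter held both an ERSE-II and an amino acid response element. The busulfan libraries held 63.4 and 58.8 FPKM and the Cus-1 libraries 69.4 and 51.5. The Cus-1 libraries were the highest and the lowest of the 4. The group means thus hardly differed (log2 fold change -0.03, SE 0.19, 95% interval -0.53 to 0.47, limma adjusted p = 0.928). The value was 0.03 with busulfan 1 left out, -0.24 with Cus-1 1 left out, 0.18 with Cus-1 2 left out and 0.69 with Sertoli centring, so no direction can be given.

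Asns encodes asparagine synthetase, a well known amino acid response gene, and lies on chromosome 6 (7675169 to 7693254, minus strand). The busulfan libraries held 29.7 and 30.99 FPKM and the Cus-1 libraries 37.7 and 32.7. Both Cus-1 libraries were above both busulfan libraries, while Atf4, its activator, was below in both. The log2 fold change was 0.20 with an interval that includes 0 (SE 0.16, 95% interval -0.20 to 0.61, limma adjusted p = 0.391). It was 0.10 with Cus-1 1 left out, 0.31 with Cus-1 2 left out, and -0.72 with spermatocyte centring.

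Trib3 and Chac1 are targets tied to ATF4 and CHOP under strong stress, and both were close to the floor. Trib3, a pseudokinase that dampens the response, lies on chromosome 2 (152337422 to 152344032, minus strand) and stood at 0.58 and 1.07 FPKM under busulfan alone and 0.71 and 0.92 after Cus-1. Chac1, which breaks down glutathione, lies on chromosome 2 (119351229 to 119354381, plus strand) and stood at 0.22 and 0.36 against 0.55 and 0.50. Trib3 overlapped between the groups, and Chac1 was higher in each Cus-1 library. Neither reached 1 FPKM in 2 libraries. At the estimated depth, and with the longest annotated transcript of each, the values rest on about 14.7 to 29.1 fragments for Trib3 and 4.5 to 12.4 for Chac1. With no filter the log2 fold change was 0.0028 for Trib3 and 0.24 for Chac1 (limma adjusted p = 0.536).

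In both groups Hspa5 was the most abundant of the 10 genes and Trib3 and Chac1 the least. Ranked by mean FPKM under busulfan alone, the order was Hspa5, Atf4, Herpud1, Ddit3, Xbp1, Asns, Ern1, Eif2ak3, Trib3 and Chac1, and of the neighbours only Herpud1 and Ddit3 overlapped. After Cus-1 it was Hspa5, Ddit3, Atf4, Herpud1, Asns, Xbp1, Ern1, Eif2ak3, Trib3 and Chac1, and the neighbours from Ddit3 to Herpud1 overlapped. The rank of Ddit3 is as uncertain as its value, for the reason given above. Xbp1 and Asns traded places, and their ranges did not overlap in either group. Xbp1 was at 39.7 ± 0.53 and Asns at 30.35 ± 0.91 FPKM under busulfan alone, and Xbp1 at 25.6 ± 6.50 and Asns at 35.2 ± 3.59 after Cus-1 (SD, n = 2).

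Ratios within a library do not depend on how libraries are scaled. Those below are made from the levels given above, so they add no separate evidence of a change. Hspa5 stood at 24.2 and 27.6 times the Ern1 level under busulfan alone and at 56.9 and 42.1 times after Cus-1. Over Eif2ak3 the ratio was 29.3 and 39.0 against 67.1 and 61.5, and over Xbp1 7.78 and 9.57 against 17.4 and 12.4. In each of these both Cus-1 libraries were higher, and Cus-1 1 was the highest. Asns over Atf4 was likewise higher in both, at 0.40 and 0.44 against 0.66 and 0.48. None of these 4 ratios can have an exact permutation p under 0.333.

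**Figure D3:**
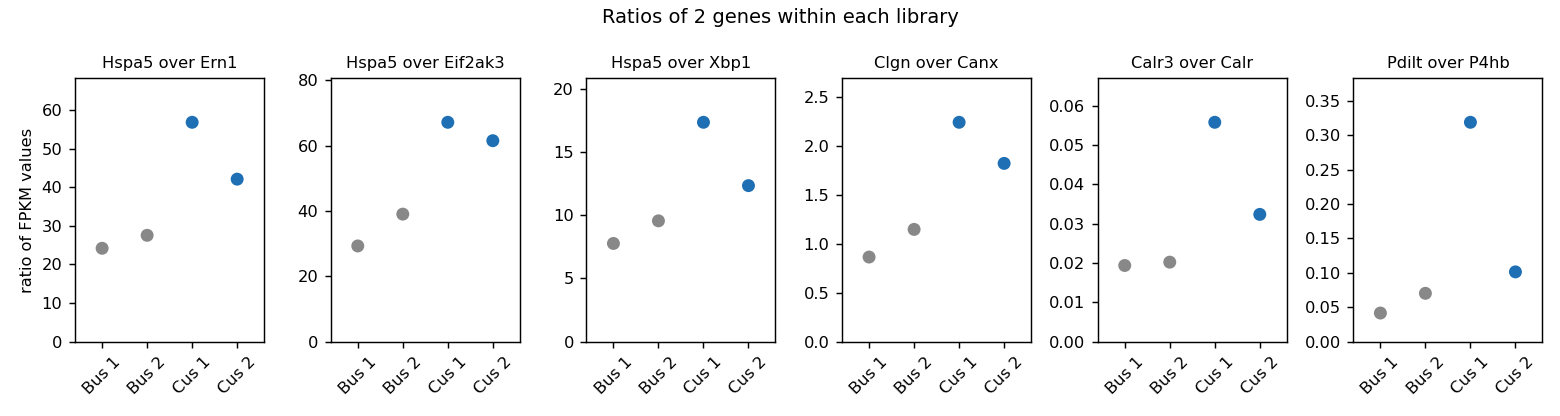
Ratio of the FPKM of 2 genes within each library (vertical axes, each from 0), with busulfan in grey and Cus-1 in blue. Hspa5 over Ern1, Eif2ak3 and Xbp1, and the germ cell chaperones Clgn, Calr3 and Pdilt over Canx, Calr and P4hb, are higher in each Cus-1 library, with Cus-1 1 the highest in all 6.

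Further ATF4 targets, most of them genes of amino acid supply, were on the lower side, with a median of -0.47 (0.25 with Sertoli centring). Of 17 tested, 10 were lower and 0 higher in each Cus-1 library (31.7% and 36.6% of all genes). An unadjusted limma p under 0.05 was found for 6 of them, all lower, beside 9.96% of all genes. Psat1, of serine synthesis, stood at 41.4 and 43.7 FPKM under busulfan alone and 30.8 and 29.5 after Cus-1 (-0.48, SE 0.14). Sesn2, a leucine sensor that restrains growth, stood at 41.8 and 32.1 against 22.7 and 22.6 (-0.67, SE 0.18). Both were below the busulfan range. Of the leucine transporter, Slc3a2 was lower in both, with 439 and 449 against 265 and 382 FPKM (-0.48, SE 0.23), and its partner Slc7a5 overlapped, with 182 and 191 against 171 and 221 (0.06, SE 0.18). Asns, at 0.20, lay above all 17 of these genes. The 6 genes under 0.05 numbered 0, 3, 1 and 6 with busulfan 1, busulfan 2, Cus-1 1 or Cus-1 2 left out.

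The aminoacyl-tRNA synthetases, many of which are ATF4 targets too, had a median of 0.04, that of all genes, and of -0.08, 0.13, 0.05 and 0.01 with each library left out. Of 12 genes 4 were higher and 1 lower in each Cus-1 library (36.6% and 31.7% of all genes). An unadjusted limma p under 0.05 was found for 0 (28.0% of all genes). Sars1 overlapped, with 95.6 and 87.3 FPKM under busulfan alone and 66.4 and 90.5 after Cus-1 (-0.23, SE 0.20), as did Nars1 (-0.17, SE 0.18). Aars1 (0.22, SE 0.15) and Cars1 (0.24, SE 0.19) were higher in both.

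The eIF2 machinery went both ways: of 12 genes, 4 were higher and 4 lower in each Cus-1 library (36.6% and 31.7% of all genes). The median of the 12 was 0.15. This median depended on single libraries, at 0.025, 0.14, 0.24 and 0.028 with each left out, and was 0.057 after quantile normalization. Eif2b4, of the exchange factor that phosphorylated eIF2 blocks, stood at 27.9 and 33.9 FPKM under busulfan alone and 54.0 and 45.7 after Cus-1 (0.68, SE 0.18, limma adjusted p = 0.152). Eif2s3x, the X-linked gamma subunit of eIF2, stood at 29.3 and 24.0 against 14.8 and 19.7 (-0.61, SE 0.21). Eif2s2, the beta subunit, was higher in both, at 73.7 and 93.2 against 99.7 and 109.5 (0.33, SE 0.18), and Eif2b2 overlapped (0.16, SE 0.19). Subunits of the same complex thus lay on either side of the busulfan range.

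The general ER chaperones and folding enzymes had a median of -0.0016 over 21 genes. Of these, 8 were higher and 5 lower in each Cus-1 library (36.6% and 31.7% of all genes). An unadjusted limma p under 0.05 was found for 4 higher and 2 lower genes, shares near the 18.0% and 9.96% over all genes. Leaving out each library gave medians of -0.02, 0.05, 0.07 and -0.02. The abundant Hsp90b1 (GRP94) stood at 408 and 419 FPKM under busulfan alone and 424 and 466 after Cus-1 (0.11, SE 0.16). Manf, a secreted stress factor, overlapped with 725 and 621 against 533 and 654 (-0.18, SE 0.20). Sdf2l1, a cofactor of BiP, was higher in both, at 27.3 and 37.7 against 56.7 and 53.0 (0.76, SE 0.20), and Txndc5, a disulfide isomerase, lower in both, at 78.4 and 69.7 against 43.6 and 54.9 (-0.59, SE 0.18). The 4 higher genes numbered 0, 4, 1 and 3 with busulfan 1, busulfan 2, Cus-1 1 or Cus-1 2 left out, and the 2 lower ones 0, 1, 0 and 3. After quantile normalization there were 2 of each.

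All 5 genes of the germ cell ER chaperone list were higher in each Cus-1 library, as were 36.6% of all genes. The list includes Sec61a2, which is also in the list of ER entry. Its median of 0.96 fell to 0.03 with spermatocyte centring. An unadjusted limma p under 0.05 was found for 4 of the 5, beside 18.0% of all genes. Clgn (calmegin), the germ cell form of calnexin, stood at 110.2 and 156 FPKM under busulfan alone and 268 and 229 after Cus-1 (0.91, SE 0.22, limma adjusted p = 0.152). Its general form Canx stood at 127 and 136 against 119 and 125 (-0.10, SE 0.14). Clgn over Canx was 0.87 and 1.15 under busulfan alone and 2.25 and 1.83 after Cus-1, so Clgn was the more abundant in 3 of the 4 libraries. Calr3, the germ cell calreticulin, stood at 8.12 and 8.77 against 23.2 and 13.0 FPKM (0.97, SE 0.30), beside 419.9 and 434 against 417 and 403 for Calr (-0.06, SE 0.16). Pdilt, a testis disulfide isomerase, stood at 4.15 and 8.02 against 25.9 and 10.9 (1.39, SE 0.48), beside 100.1 and 114 against 81.2 and 108 for P4hb (-0.19, SE 0.19). In Calr3 and Pdilt Cus-1 1 was far above Cus-1 2. Sel1l2, a relative of the degradation factor Sel1l, was at 0.96 (SE 0.26) and Sec61a2, a translocon subunit, at 0.13 (SE 0.15).

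Apart from Sec61a2, the genes of the germ cell list went together with the spermatocyte and spermatid markers given above. What part those markers have in the values was not tested. Without Cus-1 1, Calr3 was at 0.57 and Pdilt at 0.80. The 4 genes under 0.05 numbered 1, 3, 1 and 4 with busulfan 1, busulfan 2, Cus-1 1 or Cus-1 2 left out.

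**Figure D4:**
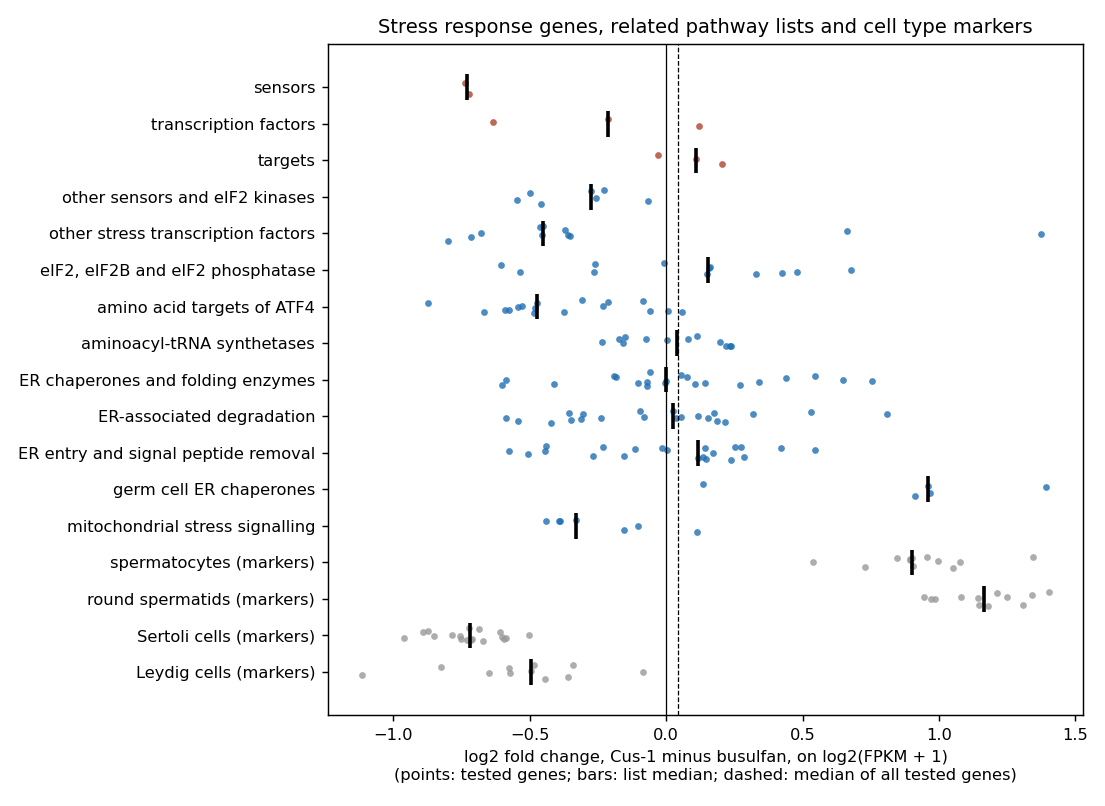
Log2 fold change (horizontal axis, Cus-1 minus busulfan on log2(FPKM + 1)) of each tested gene, by list, with members in red, other pathway genes in blue, cell type markers in grey, a bar at each list's median and a dashed line at the median of all tested genes (0.04). The sensors (median -0.73) lie beside the Sertoli markers (-0.72) and the targets (0.11) near all genes. The germ cell ER chaperones (0.96) lie beside the spermatocyte markers (0.90). Centring on Sertoli markers shifts all points right and centring on spermatocyte markers shifts all left. Some list medians then cross 0, but not those of sensors, germ cell ER chaperones or round spermatids, and all keep their distances.

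Degradation genes of the ER, the group of Herpud1, had a median of 0.02 over 21 tested. In each Cus-1 library 6 were higher and 7 lower (36.6% and 31.7% of all genes). The median had no stable sign, at -0.06, -0.01, 0.11 and -0.11 with each library left out. An unadjusted limma p under 0.05 was found for 1 higher and 3 lower genes (18.0% and 9.96% of all genes). Derl1, a membrane channel protein, stood at 45.7 and 44.1 FPKM under busulfan alone and 28.2 and 32.9 after Cus-1 (-0.54, SE 0.16), and Derl3 at 66.3 and 60.9 against 46.7 and 47.7 (-0.42, SE 0.14). The abundant Selenos overlapped between the groups, at 142 and 175 against 169 and 198 FPKM (0.22, SE 0.18). The 3 lower genes numbered 0, 0, 0 and 4 with busulfan 1, busulfan 2, Cus-1 1 or Cus-1 2 left out.

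Genes of entry into the ER had a median of 0.12 over 21 tested. Of these, 8 were higher and 6 lower in each Cus-1 library (36.6% and 31.7% of all genes). With each library left out the median was 0.0015, 0.057, 0.09 and 0.05, and after quantile normalization 0.0057. An unadjusted limma p under 0.05 was found for 0 (28.0% of all genes), but for 1 higher and 3 lower after quantile normalization. Srp14, of the signal recognition particle, stood at 204 and 287 FPKM under busulfan alone and 349.8 and 357 after Cus-1 (0.54, SE 0.21, and 0.30 with busulfan 1 left out). Spcs1, of signal peptidase, was higher in both (0.29, SE 0.18), and Sec62, of the translocon, lower in both (-0.44, SE 0.20, and -0.21 with Cus-1 1 left out). Genes of mitochondrial stress, a source of ATF4 activity, had a median of -0.33 over 7 tested (0.39 with Sertoli centring). In each Cus-1 library 1 was higher and 5 were lower (36.6% and 31.7% of all genes). Under 0.05 there was 1 lower gene (9.96% of all genes). Hspd1, the mitochondrial chaperonin, stood at 132.5 and 125 against 85.5 and 112 FPKM (-0.39, SE 0.18), and its partner Hspe1 overlapped (-0.16, SE 0.23). Clpp, a protease gene and the 1 under 0.05, was lower in both (-0.39, SE 0.14). That count was 0, 0, 0 and 2 with each library left out, where the list's median was -0.34, -0.18, -0.20 and -0.44. Hspa9, the mitochondrial relative of Hspa5, was higher in both (0.11, SE 0.14), but at -0.0053 after quantile normalization.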

How the data were processed

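RNA from 4 mouse testis libraries, 2 per group, was compared. The authors deposited 1 table of FPKM values per gene and library, printed to 2 decimals. Per the submitters' processing notes, mm10 was the genome build. Which aligner, counter, annotation, strand setting and filters were used, and how shared fragments were treated, was not given in the sources used here. Each column carries a library name that stands in the labels. Replicates were numbered in order of submission, and these numbers pair nothing. Rows that name no gene were dropped, 46 of them blank and 910 with a dash (0.641% to 0.688% of the FPKM in a library). Where a symbol stood on several rows (115 of 44509), the row with the highest mean was used.

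The values were analysed as log2(FPKM + 1) with limma 3.58.1 in R 4.3.3, with a trend of variance on mean level. Only genes that reached 1 FPKM in 2 libraries entered, p-values were adjusted by Benjamini and Hochberg's method over these, and the threshold was 0.05. The fit was checked on simulated data with independent noise and no outlying library. That check does not cover the dependence on single libraries described here. The members and all gene lists were chosen with earlier results of these data known. Named genes were all members and, from each other list, the 2 most abundant and the 2 of smallest p, plus 3 pairs of a general and a germ cell chaperone (Calr and Calr3, Canx and Clgn, P4hb and Pdilt); exceptions are stated, and 1 gene under this rule is not reported here.

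Depth was estimated from the lowest step of FPKM times length in genes with 1 annotated transcript of 300 to 2000 bases, taking that step as 1 fragment. Motifs were searched in RefSeq promoters (GRCm38.p6), which were found for all 10 members.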

Additional observations from a re-analysis of the deposited data

How the results depend on the processing

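The alternatives were another pseudocount (0.1 FPKM), no filter and a 5 FPKM filter, quantile normalization, centring on Sertoli or spermatocyte markers, no variance trend, summed rows, and leaving out each library; a lone remaining library is then assumed to vary like the other group. Centring on Sertoli markers gave 2 genes called by limma, 9403 higher and 59 lower at an unadjusted p under 0.05, and medians of -0.0082 for sensors, 0.51 for transcription factors, 0.83 for targets and 0.60 for all 8 tested members, with Atf4 at 0.51, Xbp1 at 0.087 and Herpud1 at 0.69. Centring on spermatocyte markers gave 1607, 43 and 7294 genes and medians of -1.66, -1.14 and -0.82, with Ddit3 at -0.81, Asns at -0.72 and Hspa5 at -0.82; Ern1 (limma adjusted p = 0.0489) and Xbp1 (0.0466) passed there. By construction each centring moves all genes of a library by 1 amount. Under quantile normalization the transcription factor median was -0.34, Ddit3 was at -0.0011, and 2841 genes were higher and 2690 lower. Without 1 library the called genes numbered 0 to 2289 (2289 without Cus-1 2, 45 without Cus-1 1), the higher 1230 to 3895, the lower 374 to 2399, and the medians were -0.87 to -0.59 for sensors, -0.34 to -0.085 for transcription factors and 0.03 to 0.23 for targets. Herpud1 then ran from -0.24 to 0.18 and Hspa5 from -0.028 to 0.24; the cause was not tested. Ern1 and Eif2ak3 stayed negative under every alternative, at -0.02 and -0.00085 with Sertoli centring. No paired analysis was possible because the labels give no number that the groups share.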

Other observations

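Of the chaperone list, the genes known to act on or with BiP, named here after their values were seen, did not share a direction. Hyou1 and Sil1, which exchange the nucleotide of BiP, were at 70.8 ± 7.47 and 51.7 ± 2.79 FPKM under busulfan alone and at 96.1 ± 3.03 and 65.8 ± 4.87 after Cus-1 (SD, n = 2). Their log2 fold changes were 0.44 (SE 0.15) and 0.34 (SE 0.15). Of the J-domain partners of BiP, Dnajb11 was higher in each Cus-1 library (0.27, SE 0.14), and Dnajb9 (0.08, SE 0.16) and Dnajc10 (-0.0016, SE 0.15) overlapped, as did Dnajc3 (0.15), which is in another list. The BiP cofactor Sdf2l1 was at 0.76, and Manf overlapped, at -0.18. No gene of these passed the adjusted limma threshold, and with spermatocyte centring Hyou1 was at -0.49, Sil1 at -0.59 and Dnajb11 at -0.66.

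Creb3l4, a testis member of the ER-bound CREB3 family, also named after its values were seen, stood at 10.1 and 17.5 FPKM under busulfan alone and at 51.1 and 25.4 after Cus-1 (1.37, SE 0.42, on the log2 scale), against -0.68 for its relative Creb3l1 and -0.80 (SE 0.25) for Creb3l2. Its value was 0.88 with Cus-1 1 left out and 1.86 with Cus-1 2 left out. All 12 round and all 12 elongating spermatid markers were higher in each Cus-1 library too, and their part was not tested.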
